A study of Mus musculus with 30 samples.

Results

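The Hox genes encode homeodomain transcription factors that lie in 4 clusters, Hoxa to Hoxd, and are numbered by paralogue group from 1 to 13. Members were all probe sets whose only platform gene symbol was Hox, a letter a to d and digits, which gave 48 probe sets for 33 genes, of 45037 probe sets on the array that are no controls. The Hoxa cluster held 16 of them for 9 genes, Hoxb 11 for 9 genes, Hoxc 11 for 7 genes and Hoxd 10 for 8 genes.

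In vertebrate embryos the order of Hox genes along a cluster follows their order of expression along the body axis. Low-numbered groups are expressed up to the hindbrain, high-numbered groups only towards the tail, and the forebrain develops without Hox expression. In the spinal cord Hox proteins, together with cofactors of the Pbx, Meis and Prep families, give motor neurons and interneurons the identity of their segment, and Polycomb proteins keep silent clusters closed.

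The study measured RNA of mouse neural progenitors and embryonic tissue on 30 Affymetrix arrays, with Olig1 and Olig2, bHLH factors needed for motor neurons and oligodendrocytes, deleted or intact. Of these, 22 arrays came from neurospheres, free-floating cultures of neural progenitors, grown from E14.5 ganglionic eminences of Ink4a/Arf-/- embryos of mixed Swiss and C57BL/6J background. All of these cultures carried the mutant receptor EGFRvIII from a retrovirus added at passage 1 with puromycin selection. Untransduced cultures were Olig1/2+/+ (lines 2, 3 and 20, called wild type), Olig1/2+/- (lines 11, 15 and 26, called heterozygous) and Olig1/2-/- (lines 12, 13, 14, 16, 21 and 24, called null). Lines 11, 15, 12, 13 and 14 were also measured with a second retrovirus for GFP or for Olig2, added at passage 3 with blasticidin, 1 array per line and virus. Cultures were harvested between passage 4 and passage 15, and the sources used here do not give the passage of each array. The tissue arrays held forebrain and spinal cord of the same 4 E18.5 embryos, 2 called null here (embryos 1 and 2) and 2 called heterozygous (embryos 3 and 4). Their titles name an Olig2 knockout and an Olig2 heterozygote, the study's design text names Olig1/2, and which holds for the tissues is not settled by the labels. The part of the cord taken is not given. Whether lines came from separate embryos is not stated either, so p-values over lines measure the spread between these cultures.

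Array medians lay between 128.9 and 217.4 on the deposited scale, on which each array's trimmed mean is 500, and arrays of a group correlated at 0.925 to 0.945. The Olig2 probe set read 6177 to 11577 in the 6 untransduced null cultures against 11500 to 18048 in the 6 wild-type and heterozygous ones, and Olig1 read 7064 to 9509 against 20361 to 30893. On null arrays with the Olig2 virus Olig2 read 4450, 5697 and 10011, against 10275, 8279 and 8950 with GFP in lines 12, 13 and 14. In heterozygous lines 11 and 15 it read 11641 and 10464 with the Olig2 virus against 14757 and 13286 with GFP, so it was lower with the Olig2 virus in 4 of 5 lines, without a call (limma differences -0.53 in null and -0.34 in heterozygous lines). In spinal cord Olig2 read 58.5 and 23.8 in null and 335 and 736 in heterozygous embryos. In forebrain it read 179 and 109 against 269 and 519. Where this probe set lies relative to the deleted and the transduced sequence is not given, so in the neurospheres it checks neither label. All 10 tested forebrain markers were called lower in spinal cord than in forebrain (median log2 difference -3.77), among them Tbr1, Dlx1, Lhx2 and Neurod6, and 9 of 9 tested spinal dorsal and interneuron factors were called higher (median 1.90), so the markers matched both tissue labels. The forebrain list summed to 1650 to 3374 on untransduced neurosphere arrays, below its 13903 to 16005 in forebrain. On the same neurosphere arrays the spinal dorsal and interneuron list summed to 4190 to 8646, against 1459 to 1998 in forebrain and 8474 to 9282 in cord. Of its 9 tested genes 1 was called higher and 3 lower in neurospheres than in forebrain, so these sums do not place the cultures in a region.

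Promoter windows of 4 Hoxa genes are printed because the neurosphere results below turn on Hoxa3, Hoxa4 and Hoxa5, with Hoxa7 and Hoxa9, which were called higher in spinal cord than in forebrain, for comparison. Each is the 250 bases before the RefSeq start (GRCm38.p6, minus strand, written from 5′ to 3′), in the order chr6:52213068-52213317, chr6:52204588-52204837, chr6:52218574-52218823 and chr6:52227371-52227620. Capitals mark CANNTG, the E-box core that bHLH factors such as Olig2 bind, which reads the same on both strands.
Hoxa3: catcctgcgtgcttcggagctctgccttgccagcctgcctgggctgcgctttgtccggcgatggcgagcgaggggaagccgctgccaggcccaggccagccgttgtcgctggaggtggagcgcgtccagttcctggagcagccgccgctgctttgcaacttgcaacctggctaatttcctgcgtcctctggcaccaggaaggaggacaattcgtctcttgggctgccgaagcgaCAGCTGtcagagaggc
Hoxa5: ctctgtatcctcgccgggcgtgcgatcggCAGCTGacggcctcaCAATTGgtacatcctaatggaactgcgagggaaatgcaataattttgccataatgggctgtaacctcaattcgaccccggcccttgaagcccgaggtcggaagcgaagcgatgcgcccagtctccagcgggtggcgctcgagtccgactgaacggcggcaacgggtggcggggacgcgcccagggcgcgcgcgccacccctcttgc
Hoxa7: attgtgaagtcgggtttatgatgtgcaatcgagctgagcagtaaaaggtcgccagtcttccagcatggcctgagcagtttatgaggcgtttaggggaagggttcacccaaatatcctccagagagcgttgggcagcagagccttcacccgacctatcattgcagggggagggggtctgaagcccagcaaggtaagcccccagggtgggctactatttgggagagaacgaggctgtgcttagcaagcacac
Hoxa9: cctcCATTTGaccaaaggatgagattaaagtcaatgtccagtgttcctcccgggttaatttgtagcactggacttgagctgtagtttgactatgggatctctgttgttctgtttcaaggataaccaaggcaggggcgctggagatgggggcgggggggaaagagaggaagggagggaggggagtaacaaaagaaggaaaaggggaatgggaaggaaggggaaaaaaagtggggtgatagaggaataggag
The Hoxa3 start in this table lies between the Hoxa5 and Hoxa7 windows, so its window is close to both genes. The core occurred 1 time in the Hoxa3 window, 2 times in Hoxa5, 0 times in Hoxa7 and 1 time in Hoxa9. Of all 32851 windows of this length in the table, 66.2% held it, as did 15 of the 21 windows that matched 19 of the 33 member genes. The Hoxa3 and Hoxa5 cores included CAGCTG in both, and how many of all windows hold this form was not counted. The windows also differed in CG dinucleotides, with 18 in Hoxa3, 28 in Hoxa5, 7 in Hoxa7 and 3 in Hoxa9 against a median of 6 over all windows. Hoxa4 had no entry.

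Spinal cord and forebrain differed by call in 20 of the 24 measured Hox genes of groups 2 to 10, and spinal cord was higher in every call. Of the 48 members 28 probe sets of 20 genes were called higher in spinal cord and 0 lower (limma, adjusted p under 0.05 over all 25925 probe sets tested). The other 20 were 2 without a call and 18 whose signal was too low to be tested. Of all 25925 probe sets tested, 9763 were called in either direction and 18.6% were called higher. All 28 called members were higher in spinal cord in 4 of 4 embryos, which their call on the same arrays largely fixes. Of all 48 members 33 were. Over all 48 members the median difference in log2(signal + 16) was 2.02, against -0.01 over all probe sets, and 30 of 48 had every spinal cord array above every forebrain array, which 11.6% of all probe sets did. Signals of different probe sets cannot be set against each other, since each binds with its own strength, so levels are compared below only within a probe set. In these bulk samples fewer cells of a type and less RNA per cell cannot be told apart.

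**Figure D1:**
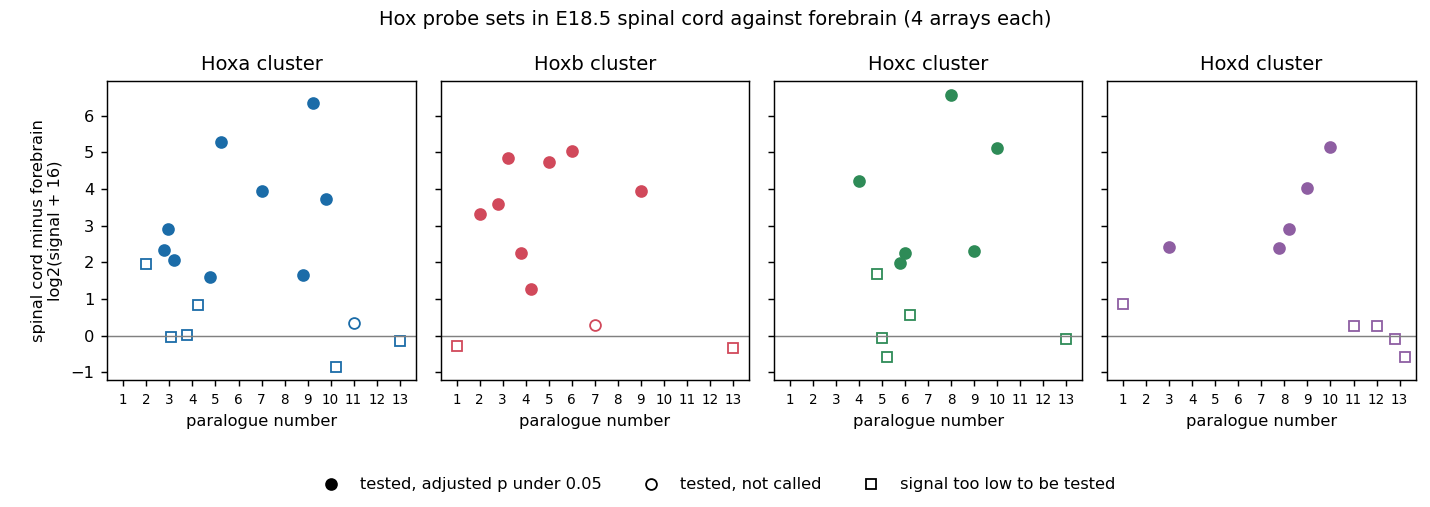
Difference between spinal cord and forebrain in log2(signal + 16) for each of the 48 Hox probe sets (y axis), by paralogue number (x axis), in 1 panel per cluster. Filled circles are the 28 probe sets called higher, open circles the 2 tested without a call and open squares the 18 too low to be tested. Called probe sets lie at numbers 2 to 10. Those at numbers 1 and 11 to 13 lie between -0.59 and 0.85, and all of them but Hoxa11 were too low to be tested.

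Called members lay in groups 2 to 10, where 28 of 38 probe sets and 20 of 24 genes were called, with a median of 2.35. The 8 probe sets of groups 11 to 13 had a median of -0.09 and a range of -0.59 to 0.35. Only 1 of these 8, at Hoxa11, was tested, without a call, and the others were too low to be tested. The 2 of group 1, Hoxb1 and Hoxd1, differed by -0.28 and 0.85 and were too low to be tested. By cluster, 9 of 16 Hoxa, 8 of 11 Hoxb, 6 of 11 Hoxc and 5 of 10 Hoxd probe sets were called higher. By group the median difference was 2.64 in group 2, 2.40 in group 3, 1.26 in group 4, 1.65 in group 5, 2.12 in group 6, 2.13 in group 7, 2.91 in group 8, 3.94 in group 9 and 4.42 in group 10.

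Among the low-numbered groups, Hoxb2, which patterns the hindbrain, read 1095, 1265, 1324 and 1180 in the cords of embryos 1 to 4 and 87.5, 46.1, 245 and 120 in their forebrains. The difference was 3.32 (SE 0.23, limma adjusted p 1.6e-06). Hoxb3, a hindbrain and cervical gene, read 2147, 2391, 2686 and 2601 in cord against 26.4, 11.0, 281 and 145 in forebrain at its higher probe set, a difference of 4.84 (SE 0.21, adjusted p 5.0e-08). For both genes every cord array was far above every forebrain array. Hoxa2, the anterior limit of the clusters in the hindbrain, reached only 139 to 212 in cord against 9.2 to 118 in forebrain, and was too low to be tested.

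Groups 4 to 8 include the genes that set cervical and thoracic motor neuron identity. Hoxc4 read 599, 497, 495 and 418 in the cords of embryos 1 to 4 and 9.2 to 14.3 in the 4 forebrains, a difference of 4.21 (SE 0.41, adjusted p 1.7e-05). Hoxa5, which acts in the cervical cord and in phrenic motor neurons, read 1533, 1637, 1566 and 1329 in cord and 8.6 to 35.1 in forebrain at probe set 1448926_at, a difference of 5.28 (SE 0.22, adjusted p 4.1e-08). Hoxb5 gave 4.73 (SE 0.33), with 650 to 992 in cord and 8.1 to 33.9 in forebrain. Hoxb6 gave 5.03 (SE 0.31), with 1660 to 2039 against 13.8 to 76.8. Hoxa7 gave 3.95 (SE 0.36), with 461 to 523 against 14.7 to 20.4. For these 5 genes the groups were apart by more than the spread among embryos. Hoxc8, a gene of brachial and thoracic cord, had the largest difference of the 48 members: it read 6598, 6540, 4339 and 4437 in cord and 8.1, 90.2, 46.5 and 49.1 in forebrain, a difference of 6.57 (SE 0.35, adjusted p 2.3e-07).

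In groups 9 and 10, which reach the thoracic and lumbar cord, Hoxa9 read 2882, 2786, 3210 and 3780 in the cords of embryos 1 to 4 and 10.6 to 52.2 in forebrain at probe set 1455626_at, a difference of 6.35 (SE 0.21, adjusted p 9.7e-09). Hoxd9 gave 4.02 (SE 0.27), with 1194 to 2401 in cord against 56.7 to 186 in forebrain. Hoxc10, a lumbar motor neuron gene, read 1794, 1164, 2129 and 1703 in cord and 11.2 to 79.9 in forebrain, a difference of 5.11 (SE 0.22, adjusted p 5.0e-08). Hoxd10, its paralogue, read 2370, 591, 2947 and 2119 in cord and 8.2 to 75.7 in forebrain, a difference of 5.14 (SE 0.47, adjusted p 1.2e-05). The cord of null embryo 2 was the lowest of the 4 at Hoxd10, Hoxc10 and Hoxd9, and still above every forebrain there. In groups 11 to 13 cord and forebrain overlapped: Hoxa11 read 275, 201, 492 and 354 in cord against 196, 251, 236 and 295 in forebrain (difference 0.35, adjusted p 0.20), Hoxd12 9.6 to 70.1 against 3.5 to 22.1, and Hoxa13 63.4 to 138 against 82.7 to 160.

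**Figure D2:**
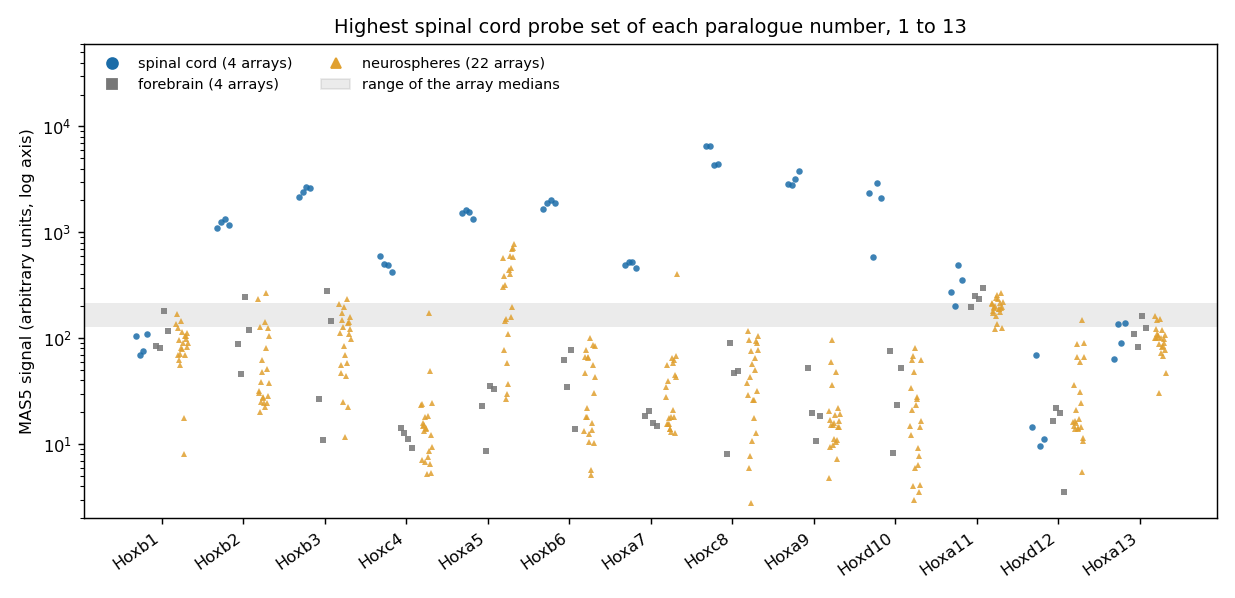
MAS5 signal on a log axis (y axis) of the probe set with the highest mean cord signal in each paralogue group, 1 to 13 from left to right (x axis), on 4 spinal cord, 4 forebrain and 22 neurosphere arrays; the band is the range of the array medians. Cord arrays lie above forebrain arrays from Hoxb2 to Hoxd10 and overlap them in Hoxb1, Hoxa11, Hoxd12 and Hoxa13, and most neurosphere arrays lie near forebrain except at Hoxa5.

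Probe sets of the same gene did not always agree. Of the 11 genes with several probe sets, 5 had all of them called in cord against forebrain, 3 had some called (Hoxa3, Hoxa10 and Hoxc6) and 3 had none (Hoxa4, Hoxc5 and Hoxd13). Hoxa3 was called at 3 of its 4 probe sets (2.06 to 2.90) and read -0.04 at the other. Hoxa10 differed by 3.72 (SE 0.21) at 1431475_a_at and by -0.84 at 1446408_at, which was too low to be tested. Hoxa4 read 27.8 to 74.2 in cord and 4.1 to 47.3 in forebrain at 1427354_at, below the array median on all 8 tissue arrays, while the same probe set reached 305 in a wild-type neurosphere line. At 1427494_at, the only Hoxb7 probe set with 1 gene symbol, cord read 202 to 270 against 132 to 214 in forebrain (difference 0.30, adjusted p 0.33).

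Other cell types also differed between the tissues. Of 10 tested meningeal and vascular markers 7 were called higher in spinal cord, among them the fibroblast collagens Col1a1 (3.46) and Col3a1 (3.50), and the list summed to 17057 to 30119 in cord against 3745 to 4085 in forebrain. Of 4 tested sensory ganglion and Schwann cell markers 2 were called higher, Pou4f1 (1.94) and Avil (2.62), with sums of 1904 to 2387 against 932 to 1009. None of 4 tested skeletal muscle markers and none of 4 cartilage and bone markers was called, and their sums overlapped between the tissues. Of 2 tested blood cell markers 1 was called higher, Alas2 (1.80). Of 9 tested motor neuron markers 3 were called higher in cord, among them Chodl (2.22), and 1 lower, Isl1 (-1.40), and of 6 tested oligodendrocyte lineage markers 5 were called higher, among them Mbp (2.12). Gapdh probe sets read 0.04 to 0.37 higher at the 3′ than the 5′ end on a log2 scale in cord and -0.22 to -0.07 in forebrain. The part of these cells and of RNA quality in the Hox differences was not tested.

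Among Hox cofactors of the TALE class, Meis1 was called higher in cord (2.87, SE 0.15), with 1167 to 1359 against 107 to 242, and so were Pbx3 (0.90) and Pknox2 (0.70), while Meis2 (-0.84) and Meis3 (-0.50) were called lower, 5 of 7 tested. Retinoic acid sets Hox borders in the hindbrain and cord. Of 7 tested retinoid and Cdx regulators 4 were called higher, Aldh1a2, which makes retinoic acid (3.70), the retinoic acid binding proteins Crabp2 (3.15) and Crabp1 (2.65), and Cyp26b1, which degrades it (0.81), and 1 was called lower, Rarb (-0.47). Aldh1a2 is made by meninges and motor neurons as well, and its part in this list was not tested. Of 25 tested Polycomb and Trithorax genes 15 were called lower in cord and 2 higher, led by Ezh2 (-1.51) and Bmi1 (-1.30). Of the ParaHox and Evx relatives 1 of 3 tested was called higher, Gbx1 (0.95). The 40 genes that flank the clusters, 5 on each side, did not move with them: of 34 tested 10 were called higher, 9 lower and 15 not at all, with a median of -0.09 against 2.02 over the Hox probe sets. Skap2, a gene that flanks the Hoxa cluster, was called higher (1.04, SE 0.18).

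No Hox difference was called between null and heterozygous spinal cords. Of the 30 members tested 0 were called between null and heterozygous cords by limma. Of all probe sets tested 0.081% were called, and 1 member had an unadjusted p under 0.05. That 1 was Hoxa11, with 275 and 201 in null against 492 and 354 in heterozygous cord (difference -0.79, SE 0.28, adjusted p 0.71). The null cords were also apart from the heterozygous ones at Hoxc8, with 6598 and 6540 against 4339 and 4437 (difference 0.58, SE 0.49, adjusted p 0.96). Hoxb3 at 1456229_at, Hoxc4 and Hoxa9 at 1455626_at had no overlap between the genotypes either, without a call. How many of all probe sets lie apart in this way was not counted. At Hoxd9 null cords read 1694 and 1194 against 2401 and 1844 (-0.56, SE 0.38, adjusted p 0.94). At Hoxd10 the difference was -1.06 (SE 0.67, adjusted p 0.93), and it rested on null embryo 2: without that array it was -0.08, and without the cord array of null embryo 1 it was -2.05. In the same cords Mbp, a myelin protein, fell by 2.95 and Cnp by 1.15 on the log2 scale, and of 9 tested motor neuron markers Chodl fell by 1.40, all called by limma. The motor neuron list summed to 2941 to 3463 in null and 5597 to 5813 in heterozygous cord, and the oligodendrocyte list to 3344 to 3579 against 9259 to 10907. The meningeal and vascular sum was 29614 to 30119 in null and 17057 to 22320 in heterozygous cord. The part of these cells in the Hox values was not tested.

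**Figure D3:**
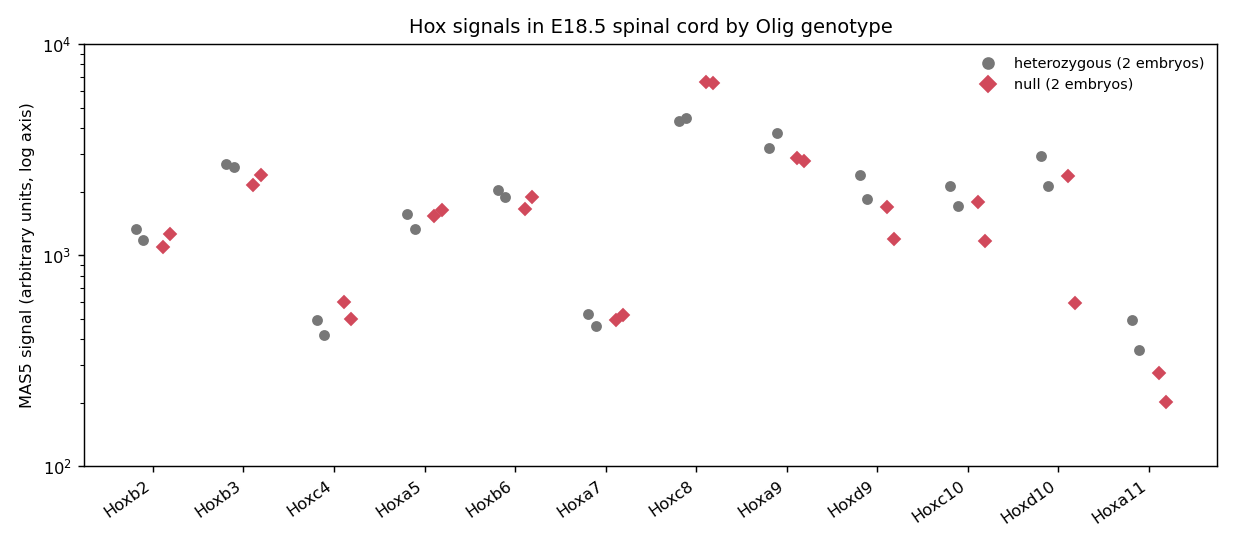
MAS5 signal on a log axis (y axis) of 12 Hox probe sets (x axis) in spinal cords of 2 heterozygous embryos (grey circles) and 2 null embryos (red diamonds). Null and heterozygous cords do not overlap at Hoxb3, Hoxc4, Hoxc8, Hoxa9, Hoxd9 and Hoxa11, all without a call, and null embryo 2 is low at Hoxd10 with 591.

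In the forebrain 1 Hox probe set was called lower in null embryos, Hoxb3 at 1456229_at, with 26.4 and 11.0 in null against 281 and 145 in heterozygous embryos (difference -2.69, SE 0.29, limma adjusted p 0.014). This was the 1 called of the 30 members tested, and 0.0154% of all probe sets tested were called. These signals lie near or below the forebrain arrays' medians, 200 to 212, and the second Hoxb3 probe set, 1427605_at, read 36.1 and 152 against 102 and 116, so it did not separate the genotypes. The call was lost without the forebrain array of null embryo 2 (adjusted p 0.10), of heterozygous embryo 3 (0.059), and without the cord array of heterozygous embryo 3 (0.083) or 4 (0.083), which enter only the shared spread; the difference was then -2.37, -2.25, -2.69 and -2.69. Hoxc10 (-1.42, adjusted p 0.46) and Hoxb2 (-1.23, adjusted p 0.50) followed by p. A test of whether genotype acted unequally in cord and forebrain called 0 of the 30 members tested by limma. Of these 30, 4 had an unadjusted p under 0.05, and 0.00386% of all probe sets tested were called. Hoxb3 at 1456229_at was the nearest (2.47, SE 0.42, adjusted p 0.31), and without the forebrain array of heterozygous embryo 4 it was called (2.91, adjusted p 0.047).

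Neurospheres had few Hox signals above the array median, and those called higher than in forebrain were Hoxa3 and Hoxa5. Of the 48 members 25 were below the array median on all 22 neurosphere arrays. Only Hoxa5 at 1443803_x_at and Hoxc6 at 1427361_at were at or above it on all 22. Against forebrain, untransduced neurospheres were called higher at 3 and lower at 1 of the 32 members tested, when 56.1% of all probe sets tested were called. Hoxa5 rose by 2.16 (SE 0.38, adjusted p 2.3e-05) at 1448926_at and by 1.34 (SE 0.32, adjusted p 0.00081) at 1443803_x_at, Hoxa3 by 1.44 (SE 0.36, adjusted p 0.0014) at 1452421_at. At 1443803_x_at the forebrains of embryos 1 to 4 read 39.7, 563, 384 and 353, and the difference was 0.50 to 2.18 when arrays were left out in turn. At Hoxa3 1452421_at null lines (40.2 to 170), wild-type line 20 (99.2) and heterozygous line 26 (153) overlapped forebrain (28.7 to 160). The other wild-type and heterozygous lines read 235 to 484. Hoxc6 fell by 0.49 (SE 0.15, adjusted p 0.0057) at 1427361_at. Without the wild-type line 2 array 7 members were called. Of the genes that lead in spinal cord, Hoxc8 read 2.8 to 117, Hoxb5 3.4 to 77.7 and Hoxc10 13.4 to 115, below the array median on all 22 arrays. The Hoxa9 probe sets disagreed: 1455626_at read 4.8 to 97.1, below the median on every array, and 1421579_at read 55.3 to 471 and was at or above it on 14 of 22. Hoxa7 read 12.8 to 67.3 on all arrays but that of heterozygous line 15 with the Olig2 virus, which read 407.

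Hoxa5 was lower in null than in wild-type and heterozygous neurospheres, and Hoxa3 and Hoxa4 had the same direction without a call. At 1448926_at Hoxa5 read 304, 575 and 77.6 in wild-type lines 2, 3 and 20, and 391, 319 and 147 in heterozygous lines 11, 15 and 26. It read 153, 26.7, 29.9, 57.8, 36.9 and 109 in null lines 12, 13, 14, 16, 21 and 24. The null lines were the lower ones, but lines 20 and 26 overlapped them. The difference was -1.87 (SE 0.48, limma adjusted p 0.029). It was the 1 called of the 12 members tested, and the rest of the 48 were too low to be tested. Of all probe sets tested 3.09% were called lower. The call was lost without wild-type line 2 (adjusted p 0.073) or 3 (0.081), heterozygous line 11 (0.081) or 15 (0.071), or null line 13 (0.063), 14 (0.054) or 21 (0.056), where the difference stayed between -1.58 and -1.81. The second Hoxa5 probe set, 1443803_x_at, did not follow (difference -0.11, SE 0.11): it read 511 to 660 in null and 575 to 821 in wild-type and heterozygous lines. Its suffix marks probes that may also bind other transcripts.

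Hoxa4 read 221, 305 and 12.1 in wild-type lines 2, 3 and 20, 265, 160 and 22.7 in heterozygous lines 11, 15 and 26, and 2.7 to 31.5 in the 6 null lines. Lines 20 and 26 read as low as null lines, and the other 4 lines were all above the null range (difference -2.13, SE 0.78, adjusted p 0.14). Hoxa3 at 1452421_at read 235, 484 and 99.2 in wild type, 404, 320 and 153 in heterozygous and 40.2 to 170 in null lines (difference -1.20, SE 0.38, adjusted p 0.081). At 1427433_s_at it differed by -1.35 (SE 0.47, adjusted p 0.11). Without wild-type line 20 both Hoxa3 at 1452421_at (-1.47, adjusted p 0.024) and Hoxa4 (-2.68, adjusted p 0.035) were called, which makes 3 members. These 3 neighbouring genes were looked at together after their values were seen. Heterozygous and wild-type lines differed at 0 of the 12 members tested by limma, with 0 at an unadjusted p under 0.05. Of all probe sets tested 0.00781% were called. The 3 of smallest p were Hoxb7 (-0.76, SE 0.39), Hoxa5 at 1443803_x_at (0.21, SE 0.16) and Hoxa3 at 1431392_at (0.36, SE 0.39).

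**Figure D4:**
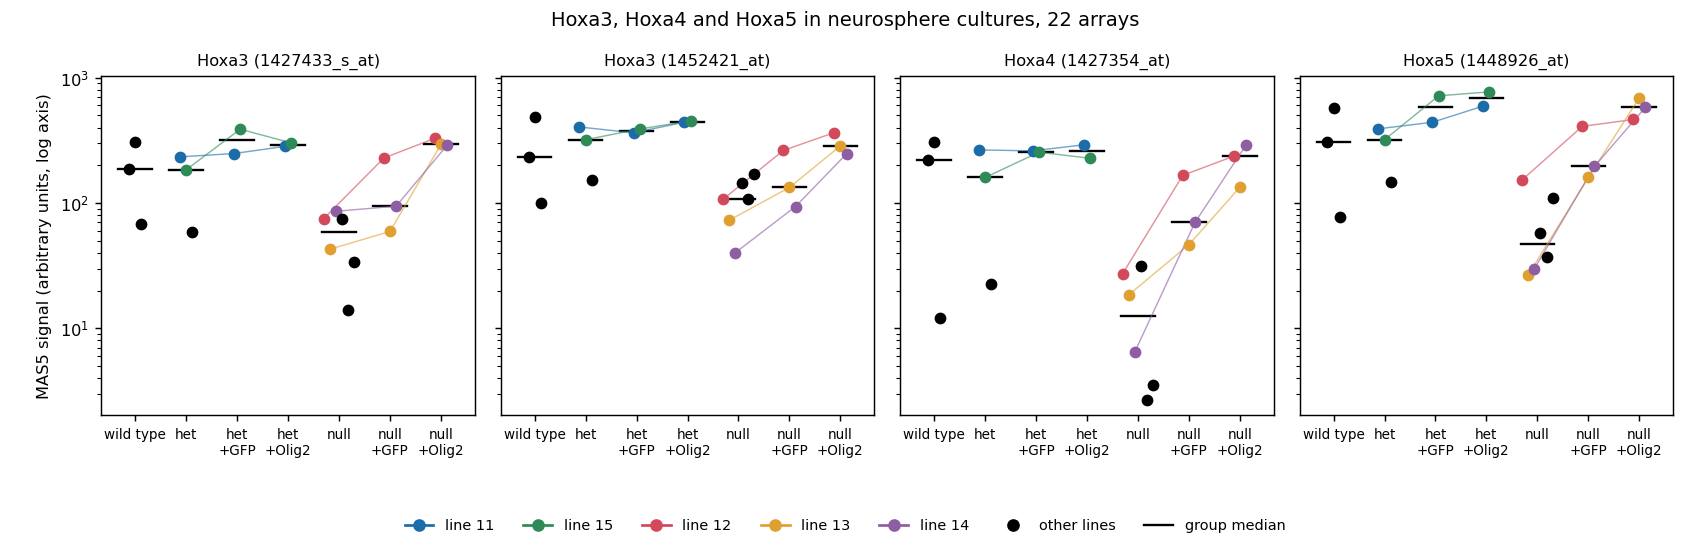
MAS5 signal on a log axis (y axis) of 4 probe sets of Hoxa3, Hoxa4 and Hoxa5 on 22 neurosphere arrays by genotype and virus (x axis); bars are group medians, and coloured lines join the arrays of a culture measured without a second virus, with GFP and with Olig2. Untransduced null lines are low, the same lines are higher with GFP and higher again with Olig2, and wild-type line 20 and heterozygous line 26 are low among the Olig-expressing lines.

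Null lines with the Olig2 virus read higher at Hoxa5 than the same lines with GFP. At 1448926_at they read 464, 690 and 580 in lines 12, 13 and 14 with Olig2 and 408, 160 and 196 with GFP. Every Olig2 array was above every GFP array, and the gap was narrow in line 12 and wide in lines 13 and 14. The difference was 1.23 (SE 0.31, limma adjusted p 0.037). At 1443803_x_at they read 765, 803 and 1012 against 547, 296 and 212, a difference of 1.35 (SE 0.29, adjusted p 0.018). Without a second virus the same lines read 633, 511 and 631 at 1443803_x_at, above their GFP arrays. At 1448926_at they read 153, 26.7 and 29.9, below their GFP arrays, so the 2 probe sets differ in how GFP compares with no second virus. Both Hoxa5 probe sets were the 2 called of the 13 members tested, both higher, when 4.29% of all probe sets tested were called higher. In all, 12 of 48 members had every Olig2 array above every GFP array, which 15.9% of all probe sets did. The difference was above 0 in 39 of 48 members, against 62.7% of all probe sets. By limma 7 of the 13 tested members had an unadjusted p under 0.05, as did 6931 of all 26735 probe sets tested. The largest difference among the 13 was 2.03, at Hoxb3 probe set 1427605_at, without a call. It read 333, 203 and 35.3 with Olig2 against 13.9, 44.2 and 15.7 with GFP in lines 12, 13 and 14. Hoxa3 read 328, 293 and 288 against 228, 59.3 and 94.3 at 1427433_s_at (1.33, SE 0.37, adjusted p 0.051), and 364, 285 and 247 against 263, 133 and 93.7 at 1452421_at (0.91, SE 0.31, adjusted p 0.093). Hoxa4 read 236, 133 and 290 against 166, 46.5 and 70.0 (1.18, SE 0.41, adjusted p 0.096). With the line as a block 4 probe sets were called, both of Hoxa5 and both of these Hoxa3 ones (adjusted p 0.038 and 0.049).

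The GFP arrays of the null lines differ from the others in technical measures. Their medians were 128.9 to 151.6 against 173.6 to 191.2 with Olig2, and the median of all probe sets tested was 0.11 higher with Olig2, a shift that quantile normalization took to -0.0044; Hoxa5 then remained called at 1443803_x_at and had an adjusted p of 0.070 at 1448926_at (difference 1.02). The GFP array of line 13 had an A260/A280 ratio of 2.83 and a Gapdh 3′ to 5′ log2 ratio of 0.43, above the other neurosphere arrays. Without it 0 members were called, with Hoxa5 at 0.97 (adjusted p 0.12) and 1.28 (adjusted p 0.056). Without the Olig2 array of line 12 0 were called, with Hoxa5 differences of 1.42 at 1443803_x_at and 1.37 at 1448926_at, and without that of line 13 0 were called, with 1.39 and 1.09. Without the GFP or Olig2 array of line 14 or the Olig2 array of heterozygous line 15 it was 1, and without the GFP array of line 12 it was 5. The part of RNA quality in these differences was not tested.

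Against their own untransduced cultures the null lines with Olig2 were called higher at 4 of the same 13 tested members. This comparison was added after the values were seen, and 1.92% of all probe sets tested were called higher in it. The untransduced cultures lack the second virus and its selection, and their passages are unknown. Olig2, virus, selection and passage therefore cannot be told apart in it, and the GFP virus alone also went with higher readings at Hoxa5 1448926_at and Hoxa4. Hoxa5 at 1448926_at went from 153, 26.7 and 29.9 to 464, 690 and 580 in lines 12, 13 and 14, above the range of the 6 untransduced null lines (3.08, SE 0.44, limma adjusted p 0.0044). Hoxa4 went from 6.5 to 27.3 in these lines to 236, 133 and 290 (2.81, SE 0.43, adjusted p 0.0060). Hoxa3 gave 1.96 (SE 0.28, adjusted p 0.0045) at 1427433_s_at and 1.87 (SE 0.30, adjusted p 0.0075) at 1452421_at. Hoxa5 at 1443803_x_at gave 0.52 (SE 0.17, adjusted p 0.12). The 4 called probe sets were higher with Olig2 in 3 of 3 lines, which their call on the same arrays largely fixes.

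The GFP virus alone went with higher Hoxa5 readings at 1448926_at, without a call. Hoxa5 at 1448926_at was higher with GFP than without a second virus in 5 of 5 lines: 408 against 153, 160 against 26.7 and 196 against 29.9 in null lines 12, 13 and 14, and 441 against 391 and 716 against 319 in heterozygous lines 11 and 15. Over both genotypes the difference was 1.25 (SE 0.40, limma adjusted p 0.25), and for Hoxa4 0.96 (SE 0.43, adjusted p 0.38). By line it was 1.33, 2.04 and 2.21 at Hoxa5 in null lines 12, 13 and 14, and 0.17 and 1.13 in heterozygous lines 11 and 15. At Hoxa4 probe set 1427354_at it was 2.07, 0.86 and 1.93 in these null lines and -0.02 and 0.62 in these heterozygous lines. Hoxa5 at 1443803_x_at went the other way (-0.37, SE 0.22, adjusted p 0.51), with -0.21, -0.76 and -1.50 in null lines 12, 13 and 14. In heterozygous lines 11 and 15 it gave -0.14 and 0.33. Of the 12 members tested 0 were called by limma, with 2 at an unadjusted p under 0.05. Of all probe sets tested 0.00752% were called. GFP and Olig2 arrays share their selection and time since transduction as far as the protocol says, and the passages of the untransduced arrays are unknown, so virus, selection and passage cannot be told apart in this comparison.

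In the heterozygous lines the Olig2 virus called 0 of the 13 members tested by limma, with 0 at an unadjusted p under 0.05. Of all probe sets tested 0% were called, and 1008 had an unadjusted p under 0.05. Hoxa5 at 1448926_at read 594 and 771 with Olig2 against 441 and 716 with GFP in lines 11 and 15 (0.26, SE 0.39). Hoxc6 at 1427361_at had the smallest p, with 175 and 292 against 289 and 332 (-0.43, SE 0.29). A test of whether the Olig2 virus acted unequally in null and heterozygous lines called 0 of the 13 members tested by limma. Of these 13, 4 had an unadjusted p under 0.05, and 0.0524% of all probe sets tested were called. The nearest were Hoxa5 at 1443803_x_at (1.29, SE 0.45, adjusted p 0.37), Hoxc6 at 1427361_at (1.02, SE 0.38, adjusted p 0.39) and Hoxa3 at 1427433_s_at (1.41, SE 0.59, adjusted p 0.44), so a difference of the effect between genotypes was not shown.

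**Figure D5:**
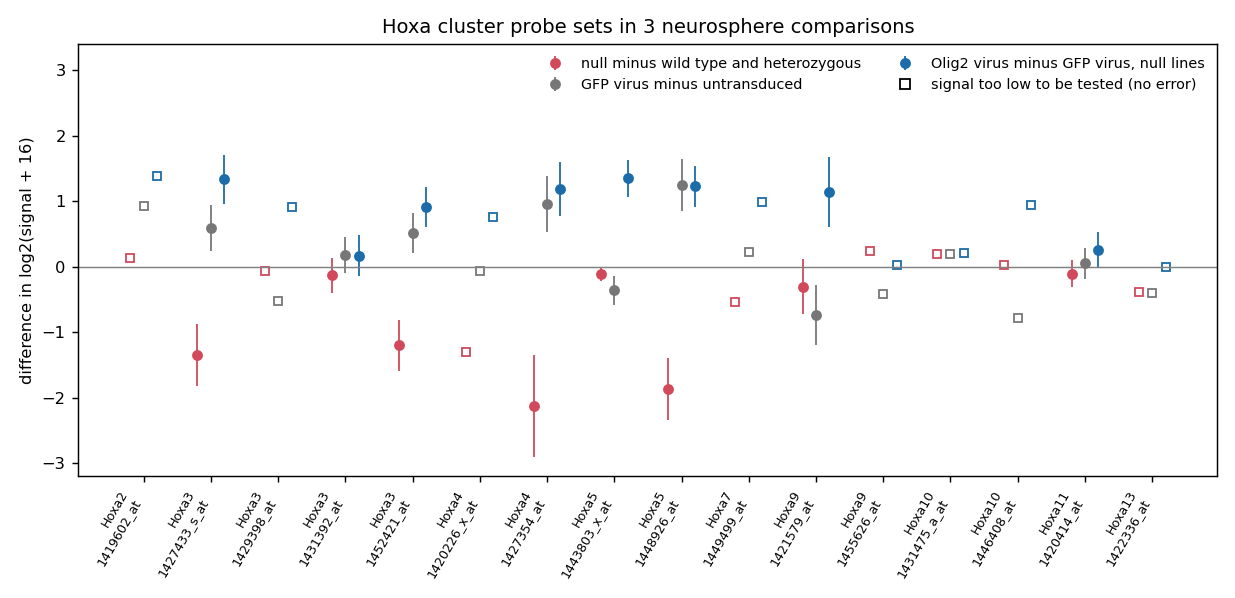
Difference in log2(signal + 16) (y axis) for the 16 Hoxa probe sets in order of paralogue number (x axis) in 3 neurosphere comparisons; bars are standard errors from limma, and open squares are probe sets too low to be tested. Null lines lie below 0 at Hoxa3, Hoxa4 and Hoxa5. The Olig2 virus in null lines lies above 0 at all 16 probe sets (0.00025 to 1.38).

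Of the Hox cofactors in culture, Meis1 was called higher with Olig2 than with GFP in null lines (1.80, SE 0.41, limma adjusted p 0.025), with 2536, 1079 and 542 against 306, 409 and 255 in lines 12, 13 and 14. Pknox1, which encodes Prep1, was called too (0.98, SE 0.22, adjusted p 0.023), with 1680, 1192 and 1434 against 729, 843 and 588, so 2 of 8 tested TALE genes were higher. Neither differed by call between null and Olig-expressing untransduced lines, where 0 of 8 did. No Polycomb or Trithorax gene of 25 tested was called in either comparison. Of the 7 tested neighbours of the Hoxa cluster 2 were called lower in null lines, Skap2 (-1.06, SE 0.23, adjusted p 0.012) and Cbx3 (-0.59, SE 0.16, adjusted p 0.041). Skap2, an adaptor protein gene, read 2397, 2710 and 1280 in wild-type lines 2, 3 and 20, 1949, 1904 and 1144 in heterozygous lines 11, 15 and 26, and 501 to 1169 in null lines. As at Hoxa4 and Hoxa5, lines 20 and 26 were the lowest of the Olig-expressing lines. In null lines 12, 13 and 14 Skap2 read 2433, 2573 and 1744 with Olig2 and 1639, 1729 and 1226 with GFP (0.55, SE 0.20, adjusted p 0.11). Of 4 tested forebrain markers 2 were called higher by limma in null lines, Lhx2 (0.99, adjusted p 0.0029) and Emx2 (0.60, adjusted p 0.030). The median over the 12 listed genes with a probe set was -0.18. With Olig2 against GFP in null lines 1 of 6 tested was called lower by limma, Lhx2 (-0.95, adjusted p 0.020), with a list median of 0.18. Markers of other cell types moved too. In null against Olig-expressing lines 2 of 7 tested oligodendrocyte lineage markers were called lower, Bcas1 (-1.91) and Cspg4 (-1.84), while the list's sums overlapped, with 3576 to 8110 in null, 3629 to 7128 in wild-type and 3925 to 5714 in heterozygous lines. The meningeal and vascular list had 1 of 5 called higher, Tbx18 (2.42), with sums of 2044 to 2811 in null against 1323 to 1977 in the others, and the sensory list 1 of 3, Pou4f1 (1.17). With Olig2 against GFP in null lines 1 of 3 sensory markers, Runx3 (1.67), and 1 of 5 muscle markers, Ckm (1.19), were called higher. The part of these cells in the Hoxa differences was not tested.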

How the data were processed

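RNA of 30 samples was measured on Affymetrix arrays, 1 array a sample. The deposited table holds linear signal intensity per probe set, made with MAS5 per the submitters' processing notes; each array's mean over all 45101 probe sets, trimmed by 2% at each end, is 500. The sources used here give no annotation or build. The 64 control probe sets were left out. Gene names came from the platform table (34945 probe sets had 1 symbol, 932 several, 9160 none).

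Differences were tested on log2(signal + 16) with limma 3.58.1 (R 4.3.3, eBayes with trend) in 11 comparisons. A probe set was tested where its signal reached the array median on at least the number of arrays in the smallest group, and called at a Benjamini-Hochberg adjusted p under 0.05 over all probe sets tested. Fold changes on this scale understate those of dim probe sets. Tissue fits pooled the spread over 8 arrays. The number of arrays limits the precision. Figures were drawn with matplotlib 3.10.9.

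Members and gene lists were chosen with earlier results of these data known. Named members were the 10 called probe sets of largest difference in each comparison (the 3 of smallest p where none was called). Also named were 1 per paralogue number in cord against forebrain, and up to 4 genes per list by p there and 2 elsewhere. Hoxa3 to Hoxa5 in neurospheres, Hoxb3 with the Olig2 virus in null lines, Hoxa7, Skap2, Cbx3 and the single-array values in the closing section were added after their values were seen. Same-numbered arrays are the same embryo or line by their titles, which sets the pairing; their deviations correlated at 0.037 to 0.045 in tissue, 0.033 to 0.132 over the viruses and -0.103 to 0.012 over GFP and untransduced arrays. Alternatives were other pseudocounts (1 and 64), filters, normalizations and spreads, 1 probe set per gene, the replicate block and leaving out each array. The fit was tested on simulated data.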

Additional observations from a re-analysis of the deposited data

Results flagged for a closer look

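In the 12 tests for an array apart, over the Hox probe sets tested in the 6 untransduced null lines, 1 found one: Hoxa5 at 1443803_x_at read 511.1 in line 13, below 613 to 660 in the other 5. Chance finds an array apart in about 1 such group in 20. Line 13 was also the lowest null line at the other Hoxa5 probe set, with 26.7.

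Of the 8 Hox-named probe sets outside the member rule, 5 had every spinal cord array above every forebrain array, as 11.6% of all probe sets did; each measures an antisense transcript or several genes at once. The antisense transcript Hoxd3os1 at 1460056_at differed by 6.17 (limma SE 0.21, adjusted p 1.3e-08), with 2528 to 2816 in cord and 12.5 to 35.6 in forebrain, and a second probe set, 1430263_at, was too low to be tested. Probe sets shared by Hoxd4 and Hoxd3 differed by 4.97 at 1450209_at and 3.80 at 1421537_at. The one shared by Hoxb8 and Hoxb7 differed by 4.58, and Hoxb5os at 1447886_at by 1.69. Whether a sense transcript adds to an antisense reading was not tested.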

How the results depend on the processing

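Under the alternatives other than those named here, counts of called Hox probe sets stayed within 1.5 times their value, and no named difference changed sign. Spinal cord against forebrain gave 18 called members in place of 28 with a 75th percentile filter, where 18 were tested, a number that this filter largely fixes because few members reach that level outside cord, and 26 to 28 when arrays were left out in turn. The 1 call in null forebrain became 0 without the trend and 0 with only the arrays compared (0 to 1 when arrays were left out), and the difference of that effect between tissues ranged from 0 to 1. The 1 call in null neurospheres became 0 with the 75th percentile filter and 0 with 1 probe set per gene, which reads Hoxa5 from 1443803_x_at (0 to 3 when arrays were left out). The 2 calls for Olig2 against GFP in null lines became 1 with no filter, 1 with quantile normalization, 1 with 1 probe set per gene, 1 without cross-hybridising suffixes and 0 without the trend. They became 4 with the replicate block and 4 with untransduced arrays as the control (0 to 5 when arrays were left out). The block changed no other count of calls. Neurospheres against forebrain ranged from 4 to 7 when arrays were left out and from 3 to 6 under the other alternatives; the cause of these changes was not tested beyond the construction named. Where a left-out array leaves 1 in a group, that array is assumed to vary like the other groups. Probe sets near the array medians, most Hox probe sets outside spinal cord among them, are limited by signal over background.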

Other observations

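The probe set shared by Hoxb8 and Hoxb7, 1452493_s_at, read 1774 and 1655 in the cords of null embryos 1 and 2 and 3742 and 4623 in those of heterozygous embryos 3 and 4, a difference that was tested and not called (-1.27, SE 0.28, limma adjusted p 0.27). The antisense transcript Hoxd3os1 at 1460056_at read 2528 and 2752 against 2798 and 2816 in the same cords. In the 22 neurosphere cultures it read 4.7 to 81.4.

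Heterozygous line 15 with the Olig2 virus read 407 at Hoxa7 and 452 at Hoxa9 (1421579_at), against 67.3 and 205 with GFP. Null line 12 with GFP read 172 at Hoxc4, where the other 21 neurosphere arrays read 5.2 to 49.5. These are single arrays with no repeat.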
